A study of Homo sapiens with 4 samples.

Results

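The nuclear genes of oxidative phosphorylation, meaning the subunits of respiratory complexes I to V and the factors that build them, were taken from the expression table by symbol, as every symbol that begins with NDUF, UQCR, ATP5, SDHA to SDHD or COX followed by a digit. The rule matched 117 of the 22578 genes in the table. Pseudogene symbols (8 genes) were dropped, which left 109 members, and 108 of them passed the filter on low counts. COX7A1, the muscle form of a complex IV subunit, did not pass it. Among the 109 were 4 antisense RNAs (COX10-AS1, NDUFA6-AS1, NDUFB2-AS1 and NDUFV2-AS1), 2 readthrough genes (NDUFC2-KCTD14 and ATP5J2-PTCD1) and a second identifier of NDUFA7, so that 102 were protein-coding genes of their own.

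The libraries came from U87MG cells, an established glioblastoma line, at passage 8. The knockdown cells, shKDM2B, carried a retroviral hairpin against KDM2B, a histone H3K36 demethylase that binds unmethylated CpG-rich DNA and belongs to a polycomb complex, and the control cells, shControl, carried a hairpin against firefly luciferase. Both groups were transduced on day 1, had their medium changed on day 2, were kept in puromycin at 1 µg/ml from day 3 and were harvested on day 9, with 2 libraries each. The labels do not give which KDM2B hairpin each shKDM2B library carried, and the study calls the replicates biological without saying what separated them, so p-values reflect the library-to-library spread alone. Bulk RNA was measured, in which fewer cells of a kind and less RNA per cell cannot be told apart.

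KDM2B itself had 520 and 465 reads in the shKDM2B libraries, against 1257 and 1253 in the shControl libraries, a log2 fold change of -1.60 ± 0.06 (SE, n = 2 per group). Total counts ranged between 30470803 and 33770421 per library. Of the markers of a glial line, VIM had 88536 and 87853 reads in shKDM2B against 132879 and 130857 in shControl (0.563-fold), CD44 had 39401 and 38115 in shKDM2B against 55101 and 54188 in shControl (0.597-fold), NES had 815 to 897, GFAP had 168 and 172 in shKDM2B against 77 and 68 in shControl, and OLIG2 had 24 to 35. The neuronal marker SYT1 had 273 to 305 reads, and RBFOX3, also neuronal, and PTPRC, of leukocytes, had at most 15. SOX2, S100B, CD3E, PECAM1 and CDH5 were not analysed here.

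Oxidative phosphorylation passes electrons from NADH, at complex I, and from succinate, at complex II, through ubiquinone to complex III, then by cytochrome c to complex IV, which reduces oxygen. Complexes I, III and IV pump protons out of the mitochondrial matrix, and complex V, the ATP synthase, lets them back in to make ATP. Except for complex II, each complex is a mosaic of subunits encoded in the nucleus and a few encoded in mitochondrial DNA, and dedicated assembly factors insert their haem, copper and iron-sulphur centres.

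Promoters of the protein-coding members with the largest called changes, 2 in each direction, are given first, because they show the DNA around the start sites that a CpG-binding protein and the known activators of respiratory genes would meet. They were read from RefSeq (GRCh38.p14), 300 bases each, beginning 250 bases before the start and ending 50 after it. Capitals mark matches, on either strand, to the letters GCGCATGCG for NRF1 (CGCATGCGC on the other strand), CCGGAAGT for ETS factors such as GABP, and AAGATGGC for YY1. COX8A lies at chr11:63974370-63974669 (+), NDUFB10 at chr16:1959288-1959587 (+), SDHD at chr11:112086623-112086922 (+) and SDHAF2 at chr11:61429874-61430173 (+).
COX8A: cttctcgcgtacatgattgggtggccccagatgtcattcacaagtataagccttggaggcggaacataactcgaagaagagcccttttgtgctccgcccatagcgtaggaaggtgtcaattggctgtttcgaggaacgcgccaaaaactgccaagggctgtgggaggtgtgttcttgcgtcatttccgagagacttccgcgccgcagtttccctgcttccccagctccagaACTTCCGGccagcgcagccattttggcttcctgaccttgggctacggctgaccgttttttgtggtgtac
NDUFB10: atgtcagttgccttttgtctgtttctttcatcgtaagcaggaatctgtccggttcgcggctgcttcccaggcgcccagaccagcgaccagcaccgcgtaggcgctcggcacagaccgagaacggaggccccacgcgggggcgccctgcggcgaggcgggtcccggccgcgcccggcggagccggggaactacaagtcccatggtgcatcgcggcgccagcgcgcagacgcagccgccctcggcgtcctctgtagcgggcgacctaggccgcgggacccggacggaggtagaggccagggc
SDHD: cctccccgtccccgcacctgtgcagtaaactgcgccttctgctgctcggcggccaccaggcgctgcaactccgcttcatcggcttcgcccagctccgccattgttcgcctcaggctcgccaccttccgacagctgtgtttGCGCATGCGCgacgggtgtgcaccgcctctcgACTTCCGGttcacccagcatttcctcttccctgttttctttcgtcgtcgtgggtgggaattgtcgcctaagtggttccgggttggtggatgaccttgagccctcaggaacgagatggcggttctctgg
SDHAF2: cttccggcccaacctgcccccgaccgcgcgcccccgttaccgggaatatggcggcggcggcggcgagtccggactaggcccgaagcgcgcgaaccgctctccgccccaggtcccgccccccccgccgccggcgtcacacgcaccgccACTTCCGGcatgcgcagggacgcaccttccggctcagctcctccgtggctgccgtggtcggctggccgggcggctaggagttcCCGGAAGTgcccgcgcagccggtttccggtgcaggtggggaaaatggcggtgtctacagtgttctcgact
COX8A and NDUFB10 had lower transcript levels in shKDM2B libraries, and SDHD and SDHAF2 had higher ones. COX8A holds 1 ETS match and NDUFB10 none of the 3 motifs, while SDHD holds 1 ETS match and a palindrome that matches NRF1 on both strands, and SDHAF2 holds 2 ETS matches. The number of CpG dinucleotides was 18 in COX8A, 39 in NDUFB10, 27 in SDHD and 42 in SDHAF2.

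Of the 102 protein-coding members, 83 matched an entry of the promoter table by symbol. At least 1 of the 3 motifs was present in 33 of the 83 (39.8%), against 8.36% of all 35116 promoters of the same length. NRF1 letters were in 15.7% of members' promoters against 1.92% of all, ETS letters in 15.7% against 4.14%, and YY1 letters in 14.5% against 2.89%. Matches of different motifs may share end bases. The share with a match was 16 of 33 for members lower in shKDM2B, 5 of 15 for members higher and 12 of 35 for those past neither threshold. The median number of CpG dinucleotides was 23 in members' promoters and 14 in all promoters, and it was 21 for lower members, 19 for higher members and 28 for the rest. These are counts of letters in a fixed window, and no test was made of them.

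Expression is given below as CPM, the reads of a gene relative to all reads of its library, scaled by TMM, a method that sets each library's scale from the bulk of its genes. Levels ran between 0.143 CPM for COX7A1 and 605.2 CPM for ATP5B. Of the raw reads, without TMM scaling, all members together took 0.741% and 0.747% in shKDM2B libraries, against 0.705% and 0.707% in shControl libraries. On the TMM scale their sum went the other way, at 7086 and 7137 CPM in shKDM2B, against 7380 and 7398 CPM in shControl. By edgeR's quasi-likelihood test with Benjamini-Hochberg adjustment over all 21783 genes, 41 of the 108 members tested were lower in shKDM2B cells at an adjusted p of at most 0.05 and 21 were higher. Over all genes, 29.5% were lower and 28.4% were higher, so the members' shares were 38.0% and 19.4%. With a 1.5-fold threshold added, 1 member was lower, against 6.79% of all genes, and 1 was higher, against 13.3%. Changes were small: 105 of the 108 lay within 0.5 log2 units of 0, which is 97.2% of members and 70.8% of all genes. The median log2 fold change of the members was -0.06, against 0.01 over all genes.

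The split between lower and higher calls moved with the scaling of the libraries. Scaled by total counts alone, the median of all genes was 0.145 and that of the members 0.07, and 21 members were lower and 44 higher. Centred on 78 cytosolic ribosomal protein genes, whose own median was -0.35 under TMM, the median of all genes was 0.36 and that of the members 0.28, and 7 members were lower and 90 higher. With DESeq2's size factors in the edgeR test, 43 were lower and 21 higher. A scaling moves all genes alike, so the gap of -0.08 between the members' median and that of all genes is the same in each, but with only genes of a mean count of at least 50 tested the gap was -0.03. These scalings moved values up or by almost nothing, which higher calls survive by construction. Under all 4 the lower calls that passed were COX8A, NDUFB10, NDUFS4, NDUFB4, NDUFB9, NDUFV2 and NDUFV2-AS1. Among the other pathway genes below, TFB1M, PDSS2, FH and GABPB1 also passed as lower under all 4, with ribosomal-centred values of -0.34, -0.25, -0.16 and -0.12. The remaining lower calls, of members and of these lists, are changes relative to the bulk of genes as TMM sets it.

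**Figure D1:**
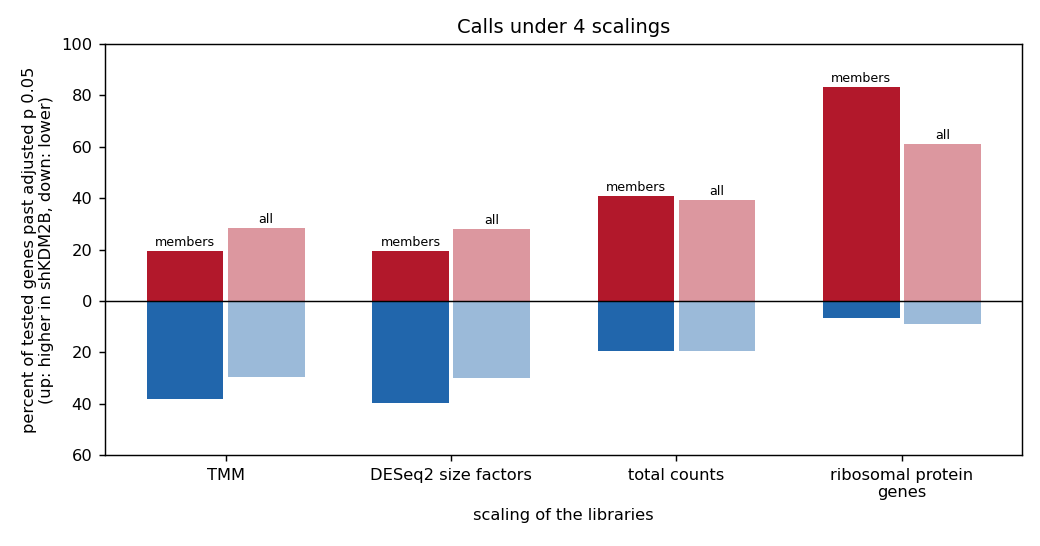
Percent of genes past an adjusted p of 0.05, higher in shKDM2B (up, red) or lower (down, blue), for the 108 members (dark bars) and all 21783 genes tested (pale bars) under 4 scalings of the libraries. Under TMM 38.0% of members were lower and 19.4% higher, and centred on ribosomal protein genes 6.48% were lower and 83.3% higher, beside 8.98% and 61.2% of all genes.

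Complex I takes electrons from NADH and is the largest of the complexes. Of its 37 nuclear subunits, 15 were lower in shKDM2B cells, 3 were higher and 19 did not pass the test, with a median log2 fold change of -0.08 under TMM and 0.27 when centred on ribosomal protein genes. The 5 subunits that were lower under every scaling were those with the largest falls, which that condition picks by size. NDUFA9 came next, at 46.5 CPM in both shKDM2B libraries, against 62.1 and 58.5 CPM in shControl. Its log2 fold change was -0.38 ± 0.04 (edgeR adjusted p = 6.33e-09), and -0.03 with ribosomal centring. NDUFB10, a subunit of the distal membrane arm, was at 19.1 and 20.3 CPM in shKDM2B libraries, against 28.2 and 29.5 CPM in shControl libraries. NDUFS4, an accessory subunit of the electron-input module that is mutated in Leigh syndrome, was at 20.9 and 23.8 CPM in shKDM2B, against 32.3 and 30.9 CPM in shControl. The groups did not overlap for either gene. Such separation was common, in 1 direction or the other, at 77.6% of all 21783 genes tested and 89 members, so it sets no gene apart. NDUFB10 and NDUFS4 had log2 fold changes of -0.55 ± 0.06 and -0.50 ± 0.06 (SE, n = 2 per group, edgeR adjusted p = 4.36e-09 and 3.04e-08). Without shKDM2B replicate 2 both came to -0.60, past 1.5-fold.

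NDUFB4, another subunit of the distal membrane arm, was at 52.9 and 52.6 CPM in shKDM2B libraries, against 75.1 and 73 CPM in shControl libraries. NDUFB9 of the same arm was at 93.9 and 92.2 CPM in shKDM2B, against 129 and 127.4 CPM in shControl. NDUFV2, a core subunit that carries an iron-sulphur cluster beside the site of NADH oxidation, was at 62.4 and 62.2 CPM in shKDM2B, against 87.3 and 82.5 CPM in shControl. All 3 had replicates close together and groups apart, with log2 fold changes of -0.49, -0.46 and -0.45 (SE 0.03 to 0.04, edgeR adjusted p at most 1.41e-10). NDUFV2 shares 28.4% of its exonic bases with an unnamed overlapping transcript, so its reads cannot be told apart from that transcript's.

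The core of complex I comprises 7 nuclear subunits that hold its flavin and iron-sulphur clusters, with a median log2 fold change of -0.02 under TMM, beside -0.12 for the 30 supernumerary subunits (0.32 and 0.23 with ribosomal centring), a difference that was not tested. NDUFV1, which binds NADH and the flavin, was at 84.2 and 85.8 CPM in shKDM2B, against 86.5 and 88.4 CPM in shControl (log2 fold change -0.04 ± 0.04, edgeR adjusted p = 0.365). NDUFS1, the largest subunit of the complex, was at 110.4 and 108 CPM in shKDM2B, against 106.7 and 105.3 CPM in shControl (0.04 ± 0.03, edgeR adjusted p = 0.308). NDUFV2 and NDUFS8 were lower, NDUFS3 was higher and the other 4 did not pass, and NDUFS8 did not pass without shKDM2B replicate 1 (edgeR adjusted p = 0.0591). NDUFV2 reads were 0.741 and 0.725 times those of NDUFV1 in shKDM2B libraries, against 1.01 and 0.934 times in shControl libraries. With 2 libraries per group the smallest two-sided p that an exact permutation test of such a ratio within libraries can give is 0.333.

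By place in complex I, 7 of the 11 distal membrane arm subunits (the NDUFB genes) were lower and NDUFB5 was higher, with a median of -0.14. DESeq2 did not call NDUFB3, 1 of the 7, or NDUFB5 (DESeq2 adjusted p = 0.128 and 0.22). Leaving out 1 library, NDUFB5 (shControl replicate 1 or either shKDM2B replicate) and NDUFB8 (shKDM2B replicate 2) did not pass. In the proximal membrane arm 3 of 9 were lower (median -0.05), in the electron-input module 2 of 8 were lower (median -0.06), and in the ubiquinone-reducing module 3 of 8 were lower and 2 higher (median -0.08). Centred on ribosomal protein genes, these medians were 0.21, 0.30, 0.29 and 0.27. Both higher genes of the ubiquinone-reducing module lie in the arm that reaches into the matrix. NDUFA5 was at 101.8 and 97.7 CPM in shKDM2B libraries, against 76.7 and 78.3 CPM in shControl libraries, the largest rise among complex I subunits (log2 fold change 0.36 ± 0.04, edgeR adjusted p = 2.29e-09). NDUFS3, a core subunit, was at 87.7 and 84 CPM in shKDM2B, against 75.8 and 75.7 CPM in shControl (0.18 ± 0.04, edgeR adjusted p = 0.000187).

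Of 8 complex I assembly factors, 5 were lower and 3 did not pass, with a median of -0.25 under TMM and 0.09 centred on ribosomal protein genes. NDUFAF3, which acts early in assembly, was at 25.9 and 25.4 CPM in shKDM2B, against 30.5 and 37.2 CPM in shControl. NDUFAF2, a chaperone of late assembly, was at 21 and 22.4 CPM in shKDM2B, against 30 and 26.8 CPM in shControl. The 2 shControl libraries were spread more than the 2 shKDM2B libraries for both, and the groups did not overlap (log2 fold changes -0.40 and -0.39, SE 0.06 each, edgeR adjusted p = 4.85e-06 and 3.41e-06). With ribosomal centring both were near 0, at -0.05 and -0.04, and NDUFAF3 was at -0.24 without shControl replicate 2.

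**Figure D2:**
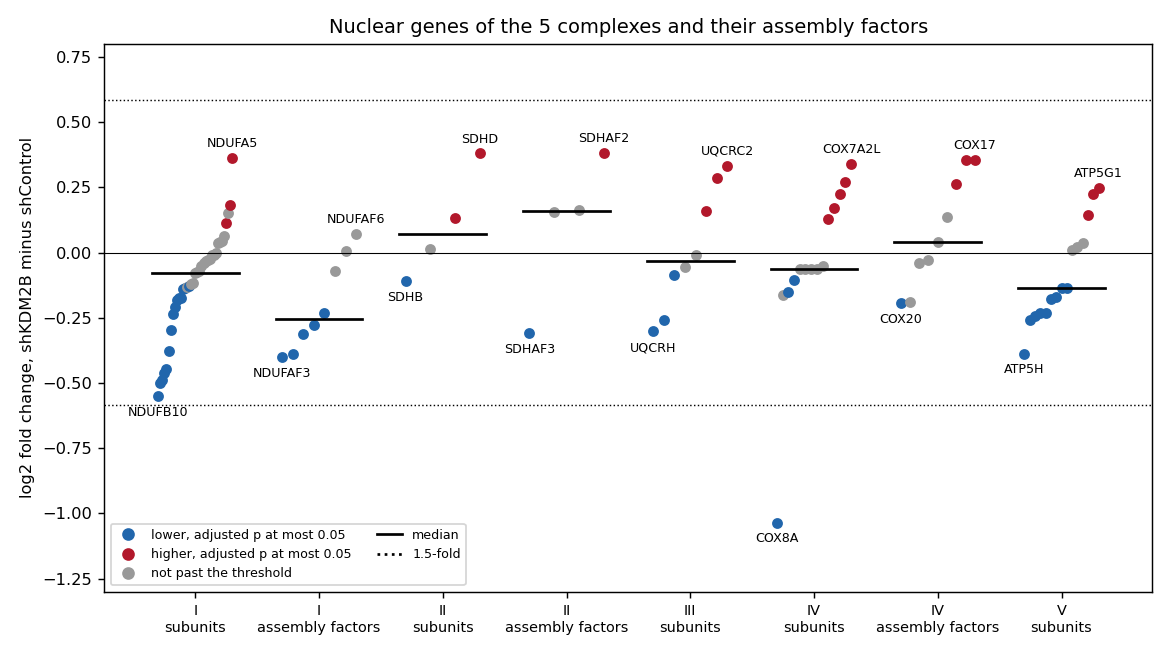
Log2 fold change (shKDM2B minus shControl, TMM scaling) of 99 protein-coding subunits and assembly factors, each point 1 gene, in columns by complex and role, with the median as a black bar and 1.5-fold as dotted lines. COX8A at -1.03 is the only point beyond a dotted line, and colours mark an adjusted p of at most 0.05 (blue lower, red higher).

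Complex II, succinate dehydrogenase, is built from nuclear genes alone and also works in the citric acid cycle. Its 4 subunits went different ways. SDHD, the small membrane anchor, was at 43.7 CPM in both shKDM2B libraries, against 33.5 and 33.6 CPM in the shControl libraries, and the replicates lay almost on each other (log2 fold change 0.38 ± 0.04, edgeR adjusted p = 1.15e-08). SDHC, the large anchor, was at 69.5 and 68.3 CPM in shKDM2B, against 64 and 61.8 CPM in shControl (0.13 ± 0.04, edgeR adjusted p = 0.00547). SDHB, the iron-sulphur subunit, was at 79.9 and 78.5 CPM in shKDM2B, against 84.9 and 86.1 CPM in shControl, lower under TMM (-0.11 ± 0.04, edgeR adjusted p = 0.0127) and higher, at 0.24, with ribosomal centring. Leaving out 1 library, SDHC (shKDM2B replicate 1, edgeR adjusted p = 0.0668) and SDHB (shKDM2B replicate 2, edgeR adjusted p = 0.089) did not pass.

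SDHA, the flavoprotein that oxidises succinate, was at 112.5 and 111.2 CPM in shKDM2B, against 110 and 111.6 CPM in shControl, and the groups overlapped (0.01 ± 0.03, edgeR adjusted p = 0.754). The near-identical pseudogenes SDHAP1, SDHAP2 and SDHAP3 can share reads with SDHA, which makes its value uncertain. SDHD reads were 0.546 and 0.557 times those of SDHB in shKDM2B libraries, against 0.395 and 0.390 times in shControl libraries. Among the 4 assembly factors of complex II, SDHAF2, which attaches the flavin to SDHA, was at 29.9 and 32.2 CPM in shKDM2B, against 22.8 and 24.9 CPM in shControl (0.38 ± 0.06, edgeR adjusted p = 1.49e-06), with 44.8% of its exonic bases shared with an overlapping transcript. SDHAF3, a factor for the iron-sulphur subunit, was at 4.3 and 4.16 CPM in shKDM2B, against 5.76 and 4.71 CPM in shControl (-0.31 ± 0.13, edgeR adjusted p = 0.044, and 0.04 with ribosomal centring), and without shControl replicate 1 it was at -0.15 and did not pass (edgeR adjusted p = 0.451). It also did not pass without either shKDM2B library.

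Complex III passes electrons from ubiquinol to cytochrome c. Of its 8 members, 3 were lower, 3 were higher and 2 did not pass, with a median of -0.03 under TMM and 0.31 with ribosomal centring. The 2 large core proteins, which sit next to each other in the matrix, differed. UQCRC2 was at 156.8 and 155 CPM in shKDM2B libraries, against 123.3 and 124.2 CPM in shControl libraries (log2 fold change 0.33 ± 0.03, edgeR adjusted p = 7.59e-10). UQCRC1 was at 148.1 and 145.3 CPM in shKDM2B, against 156.2 and 155.1 CPM in shControl (-0.09 ± 0.03, edgeR adjusted p = 0.0234, and 0.26 with ribosomal centring), and it did not pass without shControl replicate 1 or shKDM2B replicate 2 (edgeR adjusted p = 0.0647 and 0.155). UQCRC2 reads were 1.06 and 1.07 times those of UQCRC1 in shKDM2B, against 0.789 and 0.801 times in shControl.

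UQCR10, a small subunit, was at 59.8 and 62.9 CPM in shKDM2B, against 51.2 and 49.4 CPM in shControl (0.29 ± 0.04, edgeR adjusted p = 8.62e-07). UQCRFS1, the Rieske iron-sulphur protein, was at 69.9 and 72.8 CPM in shKDM2B, against 63.5 and 64.3 CPM in shControl (0.16 ± 0.04, edgeR adjusted p = 0.000945). UQCRH, the hinge protein that binds near cytochrome c1, was at 103 and 99 CPM in shKDM2B, against 122.6 and 126.5 CPM in shControl, and UQCRQ, another small subunit, was at 56.8 and 58.5 CPM in shKDM2B, against 70.1 and 67.8 CPM in shControl. Both were lower under TMM (-0.30 and -0.26, edgeR adjusted p = 2.55e-08 and 2.36e-06), and both turned to 0.04 and 0.09 with ribosomal centring. UQCRHL, a close copy of UQCRH, was not analysed here.

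Complex IV, cytochrome c oxidase, held the member with the largest change. COX8A, a small subunit of the membrane part of the enzyme in its ubiquitous form, had 1448 and 1299 reads in shKDM2B libraries, against 2251 and 2487 reads in shControl libraries. In scaled units this was 41 and 37.2 CPM in shKDM2B, against 75 and 85.4 CPM in shControl, so that both shKDM2B libraries were far below both controls. The log2 fold change was -1.03 ± 0.05 (edgeR adjusted p = 5.62e-16), or 0.488-fold, and it was -0.69 with ribosomal centring. COX8A reads were 0.269 and 0.241 times those of COX4I1 in shKDM2B, against 0.469 and 0.531 times in shControl.

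COX8A lies at chr11:63742092-63744015 (+) in hg19, and 35.4% of its exonic bases are also exons of ENSG00000256100, a transcript without a symbol in the table that runs on into OTUB1, a deubiquitinase gene. That transcript had 1738 and 1580 reads in shKDM2B, against 2527 and 2761 in shControl (log2 fold change -0.92). OTUB1 itself had 2394 and 2340 reads in shKDM2B, against 2205 and 2251 in shControl (-0.16 ± 0.04, edgeR adjusted p = 0.00101). Reads in the shared exons cannot be assigned to COX8A or to the longer transcript. COX8C, the testis form, was not analysed here.

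**Figure D3:**
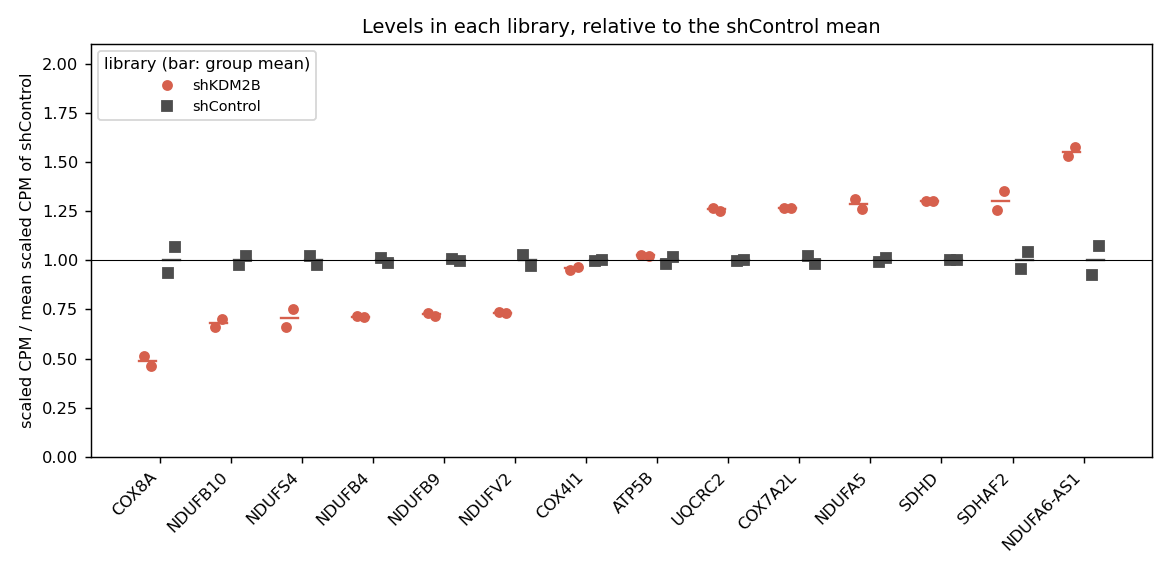
Scaled CPM of 14 members in each library, divided by the mean of the shControl libraries, with shKDM2B (circles) left of shControl (squares) and bars at the group means. COX8A is lowest at 0.488-fold by the fitted value, NDUFB10, NDUFS4, NDUFB4, NDUFB9 and NDUFV2 lie near 0.7, and COX4I1 and ATP5B lie near 1.

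The other 13 complex IV subunits tested held 5 that were higher and 2 that were lower. COX7A2L, a COX7A-related protein that joins complexes III and IV into supercomplexes, was at 84.5 and 84.4 CPM in shKDM2B, against 68 and 65.4 CPM in shControl (log2 fold change 0.34 ± 0.04, edgeR adjusted p = 1.47e-08). COX7B was at 86.2 and 87.5 CPM in shKDM2B, against 70.9 and 72.9 CPM in shControl (0.27 ± 0.04, edgeR adjusted p = 5.13e-07). COX6C, COX7C and NDUFA4 were the other higher genes, by 0.22, 0.17 and 0.13. NDUFA4 is named for complex I but is a subunit of complex IV and was placed there, and it did not pass without shKDM2B replicate 2 (edgeR adjusted p = 0.0666).

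COX7A2, the ubiquitous COX7A form, was at 44.5 and 45.8 CPM in shKDM2B, against 50.6 and 49.5 CPM in shControl (-0.15 ± 0.04, edgeR adjusted p = 0.00253, and 0.20 with ribosomal centring). DESeq2 gave COX7A2 an adjusted p of 0.0558. COX6A1, the ubiquitous COX6A form, was at 105.1 and 105.9 CPM in shKDM2B, against 113.2 and 113.7 CPM in shControl (-0.10 ± 0.03, edgeR adjusted p = 0.0104, 0.0575 without shKDM2B replicate 1, and a log2 fold change of 0.24 with ribosomal centring). COX4I1, COX5A and COX5B, among the larger nuclear subunits, did not pass the test, with log2 fold changes of -0.06, -0.05 and -0.06. COX4I1 was at 152.5 and 154.5 CPM in shKDM2B, against 159.7 and 160.8 CPM in shControl.

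Tissue-restricted forms were low in both groups. Per kilobase of its canonical transcript, COX6B2, the testis form of COX6B, was at 3.70 ± 0.09 CPM in shKDM2B and 3.86 ± 0.04 CPM in shControl, beside 158 ± 2 and 165 ± 4 CPM for COX6B1 (SD, n = 2 each). NDUFA4L2, a hypoxia-induced paralog of NDUFA4, had 31 and 21 reads in shKDM2B, against 25 and 24 reads in shControl, and COX7A1 had 9 and 5 reads in shKDM2B, against 6 and 10 in shControl. COX4I2, COX6A2 and COX7B2 were not analysed here.

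Of 9 complex IV assembly factors, 3 were higher, 1 was lower and 5 did not pass. COX10, which makes haem O, was at 24.6 and 25.8 CPM in shKDM2B libraries, against 19.2 and 20.2 CPM in shControl libraries. COX15, which turns haem O into haem A, was at 81.1 and 79.6 CPM in shKDM2B, against 68.4 and 65.6 CPM in shControl. COX17, a copper chaperone, was at 18.9 and 21.7 CPM in shKDM2B, against 15.5 and 16.2 CPM in shControl. So both enzymes of the haem A pathway rose, with log2 fold changes of 0.36 ± 0.06 for COX10 and 0.26 ± 0.04 for COX15, and COX17 rose by 0.36 ± 0.07 (edgeR adjusted p = 1.32e-05, 1.7e-06 and 0.000168). COX20, which handles subunit COX2, was lower at -0.19 ± 0.04 (edgeR adjusted p = 0.000337), but 76.6% of its exonic bases overlap HNRNPU, an abundant RNA-binding protein gene that was itself lower at -0.42, and COX20 was at 0.15 with ribosomal centring and at -0.12 without shControl replicate 1.

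Complex V consists of a catalytic head in the matrix, a rotor with a ring of c subunits in the membrane, and a peripheral stalk that holds the head still. Of the 5 subunits of the head and central stalk, 2 were lower under TMM and 3, among them alpha and beta, did not pass the test. The lower ones were ATP5E and ATP5D, at log2 fold changes of -0.168 and -0.135, and DESeq2 gave ATP5D an adjusted p of 0.134. With ribosomal centring all 5 were higher. ATP5B, the beta subunit, was at 605.2 and 600.5 CPM in shKDM2B libraries, against 578.3 and 597.9 CPM in shControl libraries (log2 fold change 0.04 ± 0.03, edgeR adjusted p = 0.253). ATP5A1, the alpha subunit, was at 342 and 340.9 CPM in shKDM2B, against 333.8 and 338.2 CPM in shControl (0.02 ± 0.03, edgeR adjusted p = 0.49).

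All 4 nuclear subunits of the peripheral stalk, ATP5H, ATP5F1, ATP5O and ATP5J, were lower under TMM. ATP5H, subunit d, was at 75.6 and 78.7 CPM in shKDM2B, against 101.7 and 100 CPM in shControl (-0.39 ± 0.04, edgeR adjusted p = 6.36e-10). ATP5F1, subunit b, was at 182.1 and 184.8 CPM in shKDM2B, against 222.4 and 216.5 CPM in shControl (-0.26 ± 0.03, edgeR adjusted p = 2.68e-08). ATP5O and ATP5J were lower by 0.24 and 0.23 log2 units. With ribosomal centring the 4 values lay between -0.04 for ATP5H and 0.11 for ATP5J. The comparison within libraries, which needs no scaling, gave peripheral stalk reads at 0.451 and 0.458 times those of ATP5A1 plus ATP5B in shKDM2B, against 0.574 and 0.549 times in shControl. ATP5J shares 37.3% of its exonic bases with GABPA, which lies next to it.

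The 3 genes that encode the same c subunit did not move together. ATP5G1 was at 63.3 and 64.6 CPM in shKDM2B, against 54.6 and 53.1 CPM in shControl (0.25 ± 0.04, edgeR adjusted p = 4.42e-06). ATP5G3 was at 148.3 and 148.6 CPM in shKDM2B, against 132.4 and 136.6 CPM in shControl (0.14 ± 0.03, edgeR adjusted p = 0.000469). ATP5G2 was at 129.3 and 129.8 CPM in shKDM2B, against 148.6 and 155.6 CPM in shControl (-0.23 ± 0.03, edgeR adjusted p = 9.48e-07, and 0.12 with ribosomal centring). ATP5G2 reads were 2.04 and 2.01 times those of ATP5G1 in shKDM2B, against 2.72 and 2.93 times in shControl. Of the small membrane subunits, ATP5L, subunit g, was at 50.3 and 52.5 CPM in shKDM2B, against 44.1 and 43.9 CPM in shControl (edgeR adjusted p = 3.12e-05), and ATP5I and ATP5J2 were lower by 0.18 and 0.13 log2 units (ATP5I by 0.11 without shControl replicate 2). Over the 15 subunits, 9 were lower, 3 higher and 3 did not pass, with a median of -0.14 under TMM and 0.21 with ribosomal centring.

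**Figure D4:**
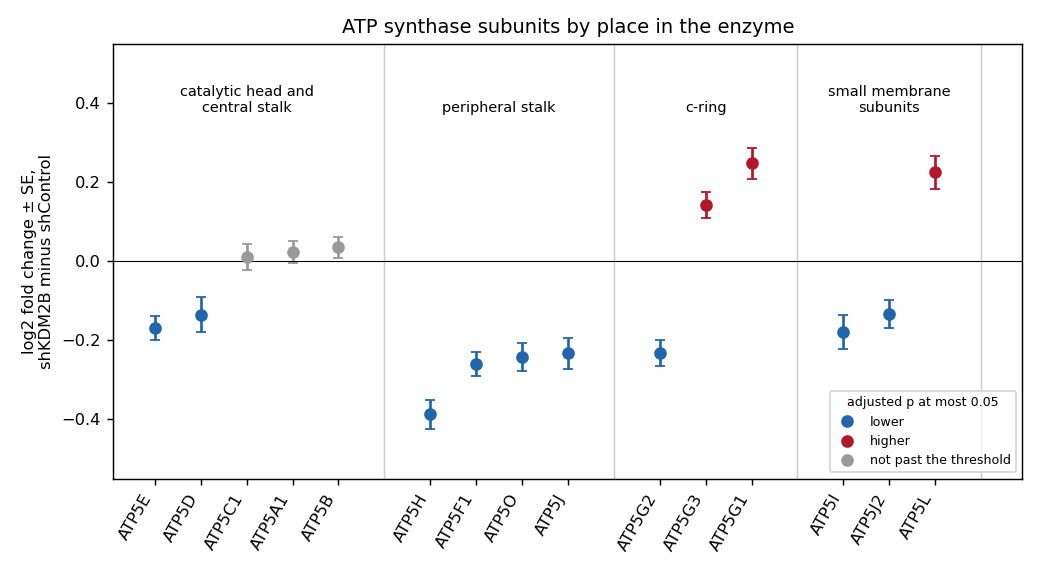
Log2 fold change ± SE (shKDM2B minus shControl, TMM scaling) of the 15 nuclear ATP synthase subunits by place in the enzyme, coloured by direction at an adjusted p of at most 0.05. The peripheral stalk lies between -0.39 and -0.23, and the c-ring genes lie on both sides of 0. In the head and central stalk, the alpha, beta and gamma subunits lie within 0.04 of 0, and ATP5E and ATP5D lie at -0.168 and -0.135.

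ATP5L2, a retrocopy of ATP5L, and ATP5S, a coupling factor, did not pass the test, with log2 fold changes of 0.29 and 0.22.

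The antisense and readthrough members were counted apart. NDUFA6-AS1, which lies head to head with NDUFA6 on chromosome 22 and shares no exonic bases with it, had 237 and 241 reads in shKDM2B libraries, against 122 and 137 reads in shControl libraries. It was the 1 member higher past 1.5-fold (log2 fold change 0.64 ± 0.12, edgeR adjusted p = 5.42e-05), and without shControl replicate 1 it came to 0.54, under 1.5-fold. NDUFA6 itself was lower, at 42.6 and 43.1 CPM in shKDM2B, against 49.5 CPM in both shControl libraries (-0.21 ± 0.04, and 0.14 with ribosomal centring). NDUFV2-AS1 and NDUFV2 were both lower, by 0.48 and 0.45, and COX10-AS1 and NDUFB2-AS1 did not pass (-0.02 and 0.06). The strand setting of the counting was not given in the sources used here, so reads of any antisense RNA that overlaps its partner cannot be told apart from the partner's. NDUFC2-KCTD14 had 994 and 1047 reads in shKDM2B, against 1004 and 1006 in shControl, close to the 984 and 1040, against 1001 and 1004, of NDUFC2, with which its exons almost coincide, and the 2 are not separate measurements. ATP5J2-PTCD1, lower by 0.15, and the second NDUFA7 identifier (-0.12, not passed) likewise lie almost wholly on exons of other entries.

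The 13 subunits encoded in mitochondrial DNA were all higher in shKDM2B cells at an adjusted p of at most 0.05, with a median of 0.18. The count was 13 under each of the 4 scalings, but these moved values up or by almost nothing, which higher calls survive by construction. MT-ND6, the subunit encoded on the light strand, was at 477.3 and 486.8 CPM in shKDM2B, against 326.4 and 311.9 CPM in shControl (log2 fold change 0.59 ± 0.03, edgeR adjusted p = 2.32e-16), past 1.5-fold. MT-ND5 was at 1577 and 1615 CPM in shKDM2B, against 1148 and 1069 CPM in shControl (0.53 ± 0.03), and MT-ND1 was at 1760 and 1777 CPM in shKDM2B, against 1360 and 1274 CPM in shControl (0.43 ± 0.03). These 3 complex I subunits stood above the other 10, which lay between 0.09 for MT-CO1 and 0.23. MT-ND6 lies directly beside MT-ND5 on the opposite strand. As the strand setting of the counting is not known, MT-ND6 reads cannot be told apart from RNA of the other strand. Its value may therefore not be separate from that of MT-ND5.

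MT-CO1, the catalytic subunit of complex IV, was at 5760 and 5872 CPM in shKDM2B, against 5688 and 5210 CPM in shControl (0.09 ± 0.03, edgeR adjusted p = 0.0051), and the 2 shControl libraries were further apart than the 2 shKDM2B libraries. Without shControl replicate 2, MT-CO1 and MT-ND4L did not pass (edgeR adjusted p = 0.282 and 0.0512). DESeq2 called 10 of the 13 higher. Mitochondrially encoded complex I subunits had 5.36 ± 0.05 times the reads of the nuclear ones in shKDM2B libraries and 4.13 ± 0.18 times in shControl libraries (SD, n = 2 each). Over all complexes the ratio was 4.31 ± 0.05 in shKDM2B and 3.62 ± 0.16 in shControl (SD, n = 2 each). Both mitochondrial ribosomal RNAs were higher too, at 0.59 each, although the libraries were made from polyadenylated RNA. Nuclear copies of mitochondrial DNA can share these reads.

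**Figure D5:**
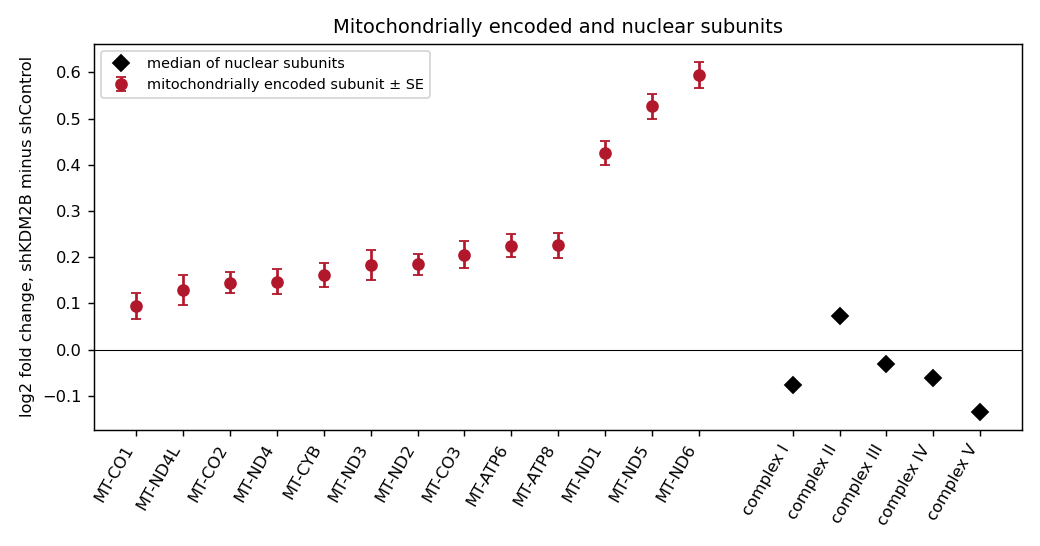
Log2 fold change ± SE (shKDM2B minus shControl, TMM scaling) of the 13 mitochondrially encoded subunits, from MT-CO1 at 0.09 to MT-ND6 at 0.59, beside the medians of the nuclear subunits of complexes I to V (black diamonds), which lie between -0.14 for complex V and 0.07 for complex II.

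Genes that regulate transcription of respiratory subunits were examined as a list of 15, of which 3 were higher, 5 lower and 7 did not pass. PPARGC1A, the PGC-1alpha coactivator of mitochondrial biogenesis, had 581 and 588 reads in shKDM2B libraries, against 115 and 104 reads in shControl libraries. Every shKDM2B value was far above every control value (log2 fold change 2.17 ± 0.10, edgeR adjusted p = 1.56e-16, a 4.49-fold rise). PPARGC1B, its paralog, was at 8.86 and 7.11 CPM in shKDM2B, against 5.33 and 6.25 CPM in shControl (0.47 ± 0.12, edgeR adjusted p = 0.00161). PPRC1, a related coactivator, went the other way under TMM, at 66.9 and 67 CPM in shKDM2B, against 81.4 and 80.9 CPM in shControl. Its log2 fold change was -0.28 ± 0.04 (edgeR adjusted p = 4.15e-07), and 0.07 with ribosomal centring. Factors through which PGC-1alpha is known to act did not move together. NRF1 was at 14.1 and 14.2 CPM in shKDM2B, against 18.1 and 17.1 CPM in shControl (-0.32 ± 0.07), ESRRA was at -0.25, and GABPB1, the beta subunit of GABP, was at 25.1 and 25.8 CPM in shKDM2B, against 36.7 and 33.8 CPM in shControl (-0.47 ± 0.05). With ribosomal centring NRF1 and ESRRA were at 0.03 and 0.10, and GABPB1 was at -0.12. GABPB2, another beta subunit, was higher at 0.24 ± 0.09 (edgeR adjusted p = 0.0182), GABPA, the DNA-binding subunit, and YY1 did not pass (0.10 and -0.02), and without 1 library PPARGC1B (shKDM2B replicate 1, 0.29, edgeR adjusted p = 0.0852) and GABPB2 (shControl replicate 2, 0.23, edgeR adjusted p = 0.0647) did not pass. GABPB2 also did not pass without shKDM2B replicate 1 or 2, and ESRRA was at -0.16 without shKDM2B replicate 2.

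TFB1M, which methylates the small mitochondrial ribosomal RNA, was at 14.2 and 15 CPM in shKDM2B, against 24.2 and 22.8 CPM in shControl (-0.69 ± 0.07, edgeR adjusted p = 1.29e-09), past 1.5-fold. It shares 38.7% of its exonic bases with other genes, 30.8% with TIAM2, and reads there cannot be assigned to 1 gene. TFAM, POLRMT and TFB2M, the core of the transcription machinery, did not pass, with log2 fold changes of -0.08, -0.08 and -0.14.

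Proteins of the complexes whose names fall outside the symbol rule numbered 5, with 3 lower and 1 higher. CYC1, cytochrome c1 of complex III, was at 92.5 and 92 CPM in shKDM2B, against 105 and 106.9 CPM in shControl (-0.20 ± 0.04, edgeR adjusted p = 1.84e-05, and 0.15 with ribosomal centring). USMG5, a small subunit of the ATP synthase, was at -0.16 and TMEM261, a complex I protein also called DMAC1, was at 0.21. C15orf48, which can replace NDUFA4 in complex IV, had 28 and 22 reads in shKDM2B, against 26 and 51 in shControl, and its call (-0.87 ± 0.29, edgeR adjusted p = 0.0128) rests on shControl replicate 2, without which it was at -0.28 (edgeR adjusted p = 0.562). DESeq2 on all 4 libraries gave C15orf48 an adjusted p of 0.131. USMG5 did not pass without shControl replicate 1 (edgeR adjusted p = 0.0526), and TMEM261 did not pass without shControl replicate 1 or without either shKDM2B library.

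For assembly factors under other names, the share called can be set beside the 57.9% of all genes called in either direction. For complex I, 10 of 12 did not pass and COA1 and TMEM126A were lower, by 0.19 and 0.47. For complex III, UQCC1, which guards newly made cytochrome b, was at 90.2 and 90.3 CPM in shKDM2B, against 66.7 and 64.4 CPM in shControl (0.46 ± 0.04, edgeR adjusted p = 3.3e-11), and its partner UQCC2 was lower, at 33.4 and 34 CPM in shKDM2B, against 41.8 and 38.5 CPM in shControl (-0.25 ± 0.05). BCS1L, which inserts the Rieske protein, was lower by 0.15, and the other 3 did not pass. For complex IV, 8 of 22 were lower and 3 were higher. CMC1, CMC2, OXA1L and SURF1 had the smallest adjusted p, at log2 fold changes of -0.44, -0.31, -0.30 and -0.45. CMC1 shares 33.4% of its exonic bases with AZI2. SURF1, mutated in Leigh syndrome, was at 16.2 CPM in both shKDM2B libraries, against 21.9 and 22.4 CPM in shControl. Of 5 genes for assembly and regulation of the ATP synthase, ATPAF1 and C7orf55 (FMC1) were higher by 0.21 and 0.27 and TMEM242 was lower by 0.28. With ribosomal centring 11 of 12, 5 of 6, 16 of 22 and 4 of 5 genes of these 4 lists were higher. BCS1L did not pass without shControl replicate 2 (-0.09) or either shKDM2B replicate, and TMEM242 did not pass without shKDM2B replicate 1 or 2 (edgeR adjusted p = 0.0555 and 0.0931).

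Genes that feed electrons into the chain and make its carriers changed in both directions under TMM. GPD2, the mitochondrial glycerol-3-phosphate dehydrogenase, was at 101.8 and 97.8 CPM in shKDM2B, against 67.9 and 70.1 CPM in shControl (0.53 ± 0.04, edgeR adjusted p = 1.71e-12). ETFB, a subunit of the electron transfer flavoprotein, was at 66.1 and 71.8 CPM in shKDM2B, against 90.4 and 92.7 CPM in shControl (-0.41 ± 0.04). HCCS, which attaches haem to cytochromes c and c1, was higher at 0.31, SQRDL, which oxidises sulphide, was lower at -0.23, and cytochrome c itself, CYCS, did not pass (0.04 ± 0.03, edgeR adjusted p = 0.335). Of 9 genes of this list tested, 4 were lower and 2 higher. With ribosomal centring 0 were lower and 7 higher, with SQRDL at 0.11 and ETFB at -0.06. DESeq2 called 3 lower and 2 higher.

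In coenzyme Q synthesis, 5 of 13 were higher and 3 lower under TMM. With ribosomal centring 10 were higher and 1 lower, and DESeq2 called 4 higher and 2 lower. ADCK4 (COQ8B), an atypical kinase of the pathway, was at 36.4 and 34.6 CPM in shKDM2B, against 24.3 and 22.2 CPM in shControl, and PDSS2, which helps make the isoprenoid tail, was at 17.4 and 17.5 CPM in shKDM2B, against 26.3 and 26.4 CPM in shControl. Both were past 1.5-fold, in opposite directions (0.61 ± 0.05 and -0.60 ± 0.06, edgeR adjusted p = 1.16e-10 and 2.02e-09). COQ4 was higher by 0.32 and COQ3 was lower by 0.42.

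In the citric acid cycle, 6 of 14 were lower and 5 higher under TMM. With ribosomal centring 1 was lower and 11 were higher, and DESeq2 called 5 lower and 5 higher. FH, fumarase, which takes the product of complex II, was at 51 and 52.2 CPM in shKDM2B libraries, against 73.6 and 73.2 CPM in shControl libraries (-0.51 ± 0.04, edgeR adjusted p = 6.5e-12), and it was at -0.16 with ribosomal centring. SUCLG1, a subunit of the enzyme that makes succinate, was at 78.9 and 76.9 CPM in shKDM2B, against 56.8 and 54 CPM in shControl (0.49 ± 0.04, edgeR adjusted p = 2.54e-11). IDH2 was at 49.7 and 50.9 CPM in shKDM2B, against 36.2 and 35 CPM in shControl (0.50 ± 0.04, edgeR adjusted p = 5.01e-11), and CS, citrate synthase, was higher by 0.33.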

How the data were processed

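RNA of 2 shKDM2B and 2 shControl cultures was sequenced as polyA TruSeq libraries in 50 bp single-end reads over 3 lanes each. The deposited file holds raw read counts per Ensembl gene, which the authors made with CASAVA 1.8.2, TopHat2 2.0.11 with Bowtie to hg19 and SAMtools 0.1.19.0, according to the submitters' processing notes. The Ensembl release and the strand setting were not stated in the sources used here. The file also holds the authors' own normalized values, fold changes and p-values, which were not used. Overlapping genes appear to have been counted for both.

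Counts were tested with edgeR 4.0.16 in R 4.3.3 (TMM, quasi-likelihood F test, shKDM2B against shControl, no covariates) on 21783 genes, those whose counts averaged 10 or more in at least 1 group, with Benjamini-Hochberg adjustment over all of them. Thresholds were an adjusted p of 0.05 and 1.5-fold, and the common biological coefficient of variation was 2.62%. SE is the absolute log2 fold change over the root of F. It rests on the model's variance, which borrows from all genes, and not on the libraries of that gene alone. The test was run on simulated counts in which a small share of genes changed, in both directions alike, with dispersions taken from these libraries. Such a check cannot bear on the choice of scaling. Both replicate pairs were further apart than counting error gives, so each library was counted once. The labels do not pair same-numbered libraries, and their deviations from the group means correlated at 0.05. With 2 libraries per group both pairs give that same value by construction, so it is 1 value and cannot decide on a pairing. DESeq2 1.42.0, other scalings, filters and thresholds, a replicate block and leaving out each library were tried.

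Transcript lengths and exon overlaps came from GENCODE 44 on GRCh37 (bedtools 2.31.1) and promoters from RefSeq. The members and lists were chosen with earlier results of these data known, so lists are given by counts and medians with no test. Members named in the text are those past both thresholds, the 2 largest changes in each direction per complex and role among calls with a mean scaled count of at least 50, core subunits and isoform sets, with the 4 smallest adjusted p of each other list and genes past both thresholds. Other names were added after their values were seen.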

Additional observations from a re-analysis of the deposited data

How the results depend on the processing

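Under total counts alone, 21 members were lower, 44 were higher and the median was 0.069, and COX6A1, SDHB and UQCRC1 turned to 0.027, 0.021 and 0.046. Centred on ribosomal protein genes, 7 were lower, 90 were higher, 13 were higher past 1.5-fold (28.5% of all genes were) and the median was 0.28, and ATP5F1, ATP5G2, COX20, COX6A1, COX7A2, SDHAF3, SDHB, UQCRC1, UQCRH and UQCRQ turned to 0.088, 0.12, 0.15, 0.24, 0.20, 0.038, 0.24, 0.26, 0.044 and 0.088. The median was -0.026 with a mean count of at least 50 and -0.073 on the length-centred scale. Leaving out each library in turn gave medians of -0.068 to -0.052, 39 to 42 lower and 19 to 21 higher members, 1 to 4 members lower past 1.5-fold (4 without shKDM2B replicate 2, namely COX8A, NDUFB10, NDUFS4 and NDUFV2-AS1) and 0 to 1 higher (NDUFA6-AS1 dropped out without shControl replicate 1). DESeq2's own test on all 4 libraries did not call COX6A1, COX7A2, SDHB, UQCRC1 and SDHC (DESeq2 adjusted p = 0.054, 0.0558, 0.0727, 0.0803 and 0.0879). It also did not call NDUFB3, ATP5D, NDUFB5 and SDHAF3 (DESeq2 adjusted p = 0.128, 0.134, 0.22 and 0.239). At 1.2-fold, 16 were lower and 10 higher, beside 20.2% and 22.5% of all genes. Among protein-coding members of their own, 0 were higher past 1.5-fold, since NDUFA6-AS1 is left out. The 43 members that share no exonic bases with another gene had 14 lower, 8 higher, 0 past 1.5-fold in either direction, since COX8A and NDUFA6-AS1 are left out, and a median of -0.031. The replicate block gave 43 lower and 22 higher members, 1 past 1.5-fold in each direction and a median of -0.06, and changed 3 of 108 calls, none of a named member. NDUFA4L2, with 21 to 31 reads per library, had an SE of 0.29 log2 units, so changes of the size seen in most members were not detectable at that depth.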
